A study of Mus musculus with 4 samples.

Results

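The 3′ untranslated regions (3′ UTRs) of lung endothelial cell (EC) transcripts held 859 A-to-I editing candidates that lay outside annotated repeats, in 451 host genes. These sites were taken from the 1205261 variant sites listed for 4 RNA libraries, of which 24200 passed in at least 1 library. A site passed in a library when at least 5 reads covered it, at least 3 of them altered, and its editing rate (altered reads over all reads) was 0.05 to 0.95. The 859 sites were those among the 24200 that were annotated to a 3′ UTR and to no repeat. The measured rate therefore chose them, and the limits themselves are no finding.

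The cells came from the lungs of 2 male C57/BL6 mice aged 2 weeks, from independent litters, named EC1 and EC2. Per the labels both were inducible, EC-specific ADAR1 knockout (i-KO) mice. They had a floxed ADAR1 gene, the promoter of their inducible Cre is not given in the sources used here, and each gave a culture treated with 4-OH-tamoxifen (TM), which switches on Cre recombinase, and an untreated culture (CON). CON cells carried the same floxed alleles. There were thus n = 2 libraries per group, paired by mouse, and the cells were studied in culture. Below, values joined by "against" and followed by the name of a mouse are CON against TM of that mouse.

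ADAR1 binds double-stranded RNA and turns adenosine into inosine, which is read as guanosine in sequencing. Most editing in mouse cells falls in inverted copies of short interspersed repeats that fold back on each other. A 3′ UTR can also form such a stem from its own unique sequence, and sites along the stem are then edited together. ADAR1 is known to favour A or U, and to disfavour G, just before the edited A.

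The target gene was read first. The study places the deletion at exons 12 to 15 of Adar. In exons 12 to 14 the EC1 mouse had 3 listed sites in CON (median 145 reads) and none in TM, and the EC2 mouse had 1 in CON (169 reads) and 2 in TM (median 65.5 reads). In exon 15, the last, the median depth was higher in TM, at 99 against 422 reads in EC1 and 156 against 835 in EC2. It came from 9 against 17 listed sites in EC1 and 2 against 15 in EC2. In exons 1 to 11 the median depth was 152.5 against 664 in EC1 and 176 against 960 in EC2. The numbers of sites were 14 against 44 and 19 against 51. Only bases with an altered read are listed, so these medians are over different sites and are not the coverage of an exon. The count over the whole gene was higher in TM in both mice (9 against 47, and 16 against 71) and does not measure the deletion. In the deposited gene counts 92.8% to 93.9% of each library fell on no gene, and of the 100 genes with the highest counts 96 overlapped an exon on the opposite strand, against 30.6% of the 16578 GENCODE genes with a count. Copg2, which overlaps Mest, had the highest count. A gene's count can thus hold reads of a gene opposite to it, and it can miss the gene's own reads. Mad2l1 had 0 counts in every library, at a summed depth of 194 to 710 reads over its sites. Rpa1 had 2 to 11 counts, at 2393 to 6323 reads. The counts do not measure levels between genes, and whether they are mostly of the opposite strand was not tested. Of 15 EC markers 12 were tested, none was higher in TM, and Cldn5 and Sox18 were lower by edgeR. Cdh5 had 442 to 869 counts and Pecam1 had 177 to 329 per library, whereas Icam2 had 8 to 13, Esam 0 to 10 and Vwf 0 to 2. The epithelial list summed to at most 8.43 CPM (counts scaled to a fixed total on genes). Leukocyte markers summed to 69.2 to 100.4 CPM, mostly of Csf1r, Cd79a and Cd68, with Ptprc at 0 or 1 count. Fibroblast and smooth muscle markers summed to 480.1 to 566.0 CPM, mostly of Tagln at 534 to 761 counts, with Pdgfrb at 0 to 3. Their part in the rates was not tested.

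Sequences of several 3′ UTRs are shown because 126 of the 187 sites in clusters of at least 3 had a near reverse complement of their stretch in the same UTR. Mid1 is shown as a host whose clusters had none by the score defined below. They were read from GENCODE vM21 transcripts (GRCm38, the build called mm10), 5′ to 3′ on the strand of the gene. Capitals mark every A that is one of the 859 sites. The first line of a pair is centred on the named site, and the second is the stretch of the same UTR that formed the most Watson-Crick pairs with it when read in the opposite direction.

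Rpa1, chr11:75301005-75301025, minus strand: aAcagaAattAtgtcAcaAgt
Rpa1, facing stretch: acttgAgAcAcAAtccctgtt
Mad2l1, chr6:66540631-66540651, plus strand: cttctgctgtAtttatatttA
Mad2l1, facing stretch: tAaAtgtaaacacagcagaag
Ankrd28, chr14:31700652-31700672, minus strand: tttctttAtAAAaatcaacat
Ankrd28, facing stretch: gtgttggtttttAtaagaaag
Rbbp4, chr4:129309974-129309994, minus strand: cagctacAAtAggtgccacca
Rbbp4, facing stretch: tggtggctccaAttgtggctg
Hif1a, chr12:73947497-73947517, plus strand: acttccaAAtAAacAccacaa
Hif1a, facing stretch: atgtggcatttatttggataa
Mid1, chrX:169989303-169989323, plus strand: catcttccccAatctgtccag

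The Rpa1 pair matched at 17 of 21 bases, with 5 sites on each side and 436 bases between the centres. The Mad2l1 pair matched at 19 of 21 bases, with 2 sites on each side, 351 bases apart. In Ankrd28 the match was 16 of 21 bases, with 4 sites on one side and 1 on the other, 791 bases apart. The Rbbp4 stretches matched at 18 of 21 bases and lay 92 bases apart. The 21 bases of Hif1a held 5 sites and had a facing stretch with 15 matches. For the Mid1 window shown, from a UTR that also held many sites, the best facing stretch matched at 12 of 21 bases. The Mid1 window centred on 169990000 matched at 14. An Optn window matched at 16 of 21 bases, although no Optn site reached the score limit used below. Matches over 21 bases alone thus do not separate these hosts, and their background was not measured.

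The 859 sites made up 3.95% to 5.47% of the passing sites of each library, with 473 against 416 in EC1 and 582 against 552 in EC2. Where they passed, the median depth was 58 against 65 reads in EC1 and 61.5 against 86 in EC2, and the median rate was 0.374 against 0.429 in EC1 and 0.425 against 0.418 in EC2. Of the sites, 240 passed in all 4 libraries, 93 in 3, 258 in 2 and 268 in 1. A total of 543 passed in both CON and TM, 181 in CON only and 135 in TM only. Sites without an altered base in a library are not listed for it, so their depth there is unknown. Comparisons that needed all libraries used the 436 sites with a depth of at least 5 in each. Just inside the limits, 49 to 57 sites of a CON library passed with exactly 3 altered reads, and 140 to 159 others failed for the lack of 1 such read. In EC1 CON the rates nearest the lower limit were 0.05 inside and 0.0498 outside, and those nearest the upper limit were 0.944 inside and 0.957 outside.

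On the gene strand, 820 of the 859 sites fell on an exon of a GENCODE transcript of the same gene and all 820 were an A, which the selection of A-to-G changes requires. A total of 814 lay in an annotated 3′ UTR. At 50 sites an exon of a gene on the opposite strand covered the same base, and reads of the 2 genes cannot be told apart there. Chromosome 1 held 186 sites, or 21.7% of them, against 14.6% of all passing sites and 6.12% of all listed 3′ UTR sites outside repeats.

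Host genes differed widely in the number of sites. Of the 451 hosts, 320 had 1 site, 65 had 2 and 66 had at least 3, and the 10 hosts with the most held 172 sites. Rpa1, a subunit of the single-stranded DNA-binding protein of replication, had 31. Mad2l1, of the spindle checkpoint, had 30, Mid1, a microtubule-associated ubiquitin ligase, had 21, and Ankrd28, a regulatory subunit of protein phosphatase 6, had 19. C330018D20Rik had 18, the tyrosine kinase gene Abl2 and Gm7694 had 12 each, and Ovca2 had 11. Ifi203, an interferon-inducible gene of the Pyhin family, Tor1aip2, of the nuclear envelope and endoplasmic reticulum, and Optn, an autophagy receptor gene, had 9 each. C330018D20Rik and Optn were seen mostly in the EC2 mouse. Of the C330018D20Rik sites, 1 against 2 passed in EC1 and 9 against 15 in EC2, and of the Optn sites, 1 against 0 in EC1 and 7 against 2 in EC2.

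**Figure D1:**
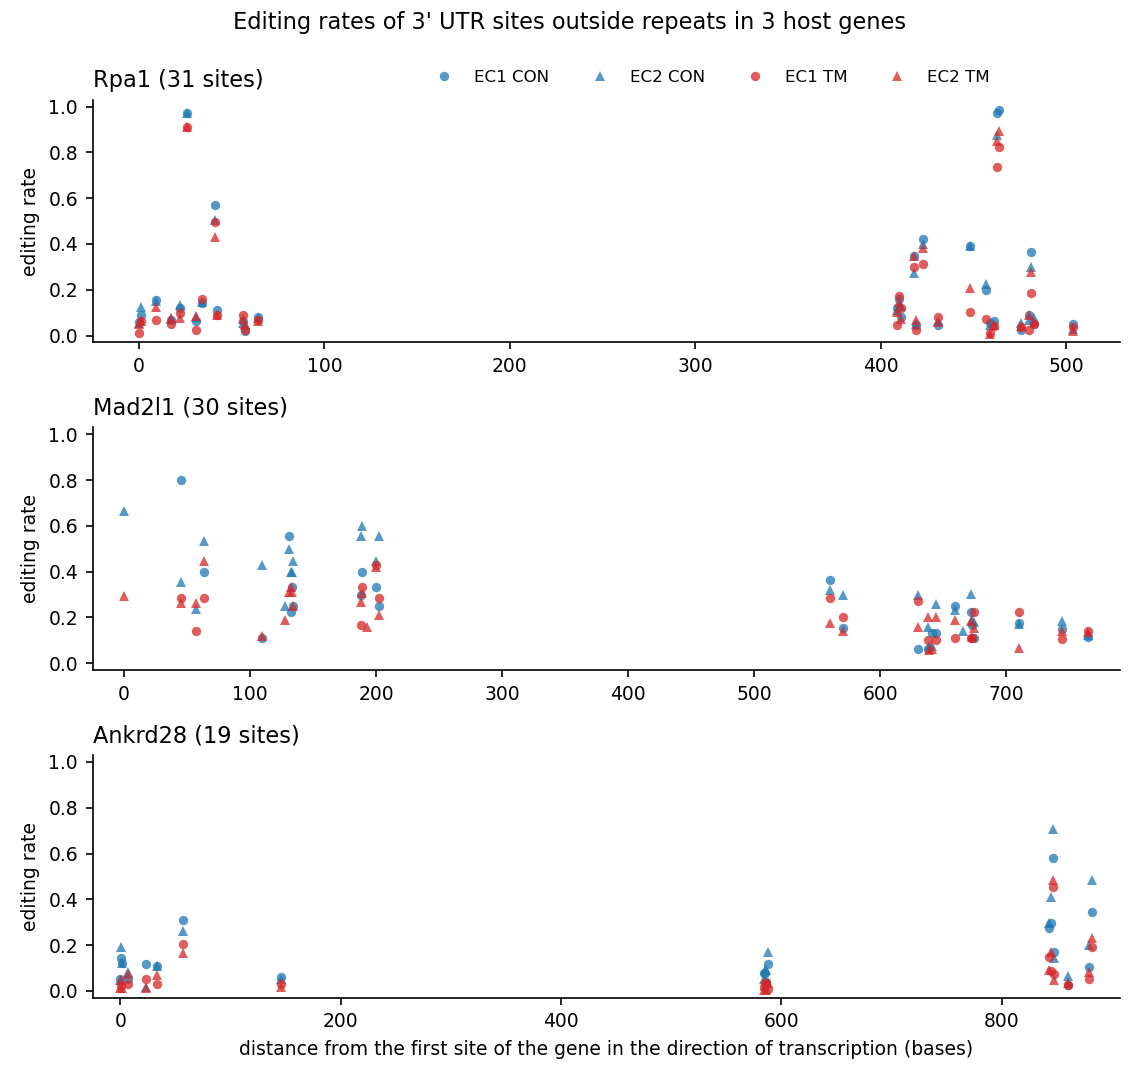
Editing rate (0 to 1) of each site of Rpa1, Mad2l1 and Ankrd28 against its distance in bases from the first site of the gene, for libraries that list the site at a depth of at least 5 (blue, CON; red, TM; circles, EC1; triangles, EC2). The 31 sites of Rpa1 and the 30 of Mad2l1 fall into 2 groups each, and in Ankrd28 most blue points stand above the red ones.

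The 31 sites of Rpa1 formed 2 clusters, one of 13 sites at 75300977 to 75301041 of chromosome 11 and one of 18 sites at 75300537 to 75300632. Over the reads of all its sites listed in each library at depth, the Rpa1 rate was 0.205 against 0.158 in EC1 and 0.200 against 0.177 in EC2. The 2 CON values were above both TM values, by 0.0479 and 0.0225 within the mice. Single sites of Rpa1 ranged from 0.0189 to 0.971 in EC1 CON. The site at 75301015 had rates of 0.971 against 0.910 in EC1 and 0.973 against 0.909 in EC2, which exceeds the upper limit in CON, so that it passed only through TM.

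In Mad2l1 the same order held, but in EC1 by only 0.000552. Its summed rate was 0.196 against 0.196 in EC1 and 0.249 against 0.176 in EC2. The 2 clusters of 15 sites, at 66540081 to 66540283 and 66540641 to 66540846 of chromosome 6, had all 30 sites in complementary stretches. The summed depth at these sites was 194 to 710 reads per library, the lowest of the 4 hosts with the most sites.

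Ankrd28 had the widest gap among the 4 hosts with the most sites. Its summed rate was 0.186 against 0.0876 in EC1 and 0.224 against 0.102 in EC2, at 1359 to 2801 reads. Both CON values stood above both TM values, and 16 of its 17 sites listed at depth in all 4 libraries were higher in CON in both mice. The Ankrd28 sites passed more often in CON (17 against 7 in EC1 and 17 against 8 in EC2), which favours this order. The 7 sites at 31700626 to 31700665 of chromosome 14 had a rate of 0.248 against 0.140 in EC1 and 0.321 against 0.157 in EC2. The nearest passing repeat site of the same gene was 13 bases from an Ankrd28 site, and the median distance was 452 bases.

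Ovca2, which encodes a predicted serine hydrolase, had a summed rate of 0.30 against 0.155 in EC1 and 0.317 against 0.140 in EC2. All 7 of its sites listed at depth in all 4 libraries were higher in CON in both mice. Hif1a, the oxygen-regulated transcription factor, had 5 sites within 8 bases near the end of its UTR, with a summed rate of 0.143 against 0.0441 in EC1 and 0.197 against 0.0475 in EC2. All 5 were higher in CON in both mice. The Hif1a sites also passed more often in CON (5 against 2 in each mouse), which favours this order. Taok1, a stress-responsive kinase, had a summed rate of 0.130 against 0.0398 in EC1 and 0.0964 against 0.0426 in EC2. Its 5 sites passed mostly through CON (5 in EC1 and 4 in EC2, against 1 in each TM library), which favours this order. Mapk1ip1l gave 0.136 against 0.0669 in EC1 and 0.149 against 0.0624 in EC2, and the chromatin subunit gene Rbbp4 gave 0.102 against 0.0402 in EC1 and 0.133 against 0.0717 in EC2. In EC1 the Mapk1ip1l sites passed at 6 against 4 and the Rbbp4 sites at 6 against 3, which favours this order, and in EC2 at 6 against 6 each. In none of these 5 hosts did the CON and TM values overlap. The share of all hosts without such overlap was not counted, so this is a description of named hosts.

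Other hosts with many sites were mixed. Gm7694 had a summed rate of 0.636 against 0.55 in EC1 and 0.637 against 0.455 in EC2, with both CON values higher, at 40 to 124 reads. Of its 5 sites at depth, however, 1 was higher in CON in EC1, 4 in EC2 and 0 in both mice. Ifi203, described with its expression, had the same order of summed rates. Mid1, on the X chromosome, had a summed rate of 0.264 against 0.298 in EC1 and 0.299 against 0.288 in EC2, and only 5 of its 18 sites at depth were higher in CON in both mice. Abl2 had 0.401 against 0.455 in EC1 and 0.461 against 0.431 in EC2. Tor1aip2 had 0.394 against 0.432 in EC1 and 0.405 against 0.454 in EC2, with both TM values above both CON values. Of the Abl2 sites 9 of 12, and of the Tor1aip2 sites 7 of 9, had a rate of 0.3 to 0.7 in every library.

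**Figure D2:**
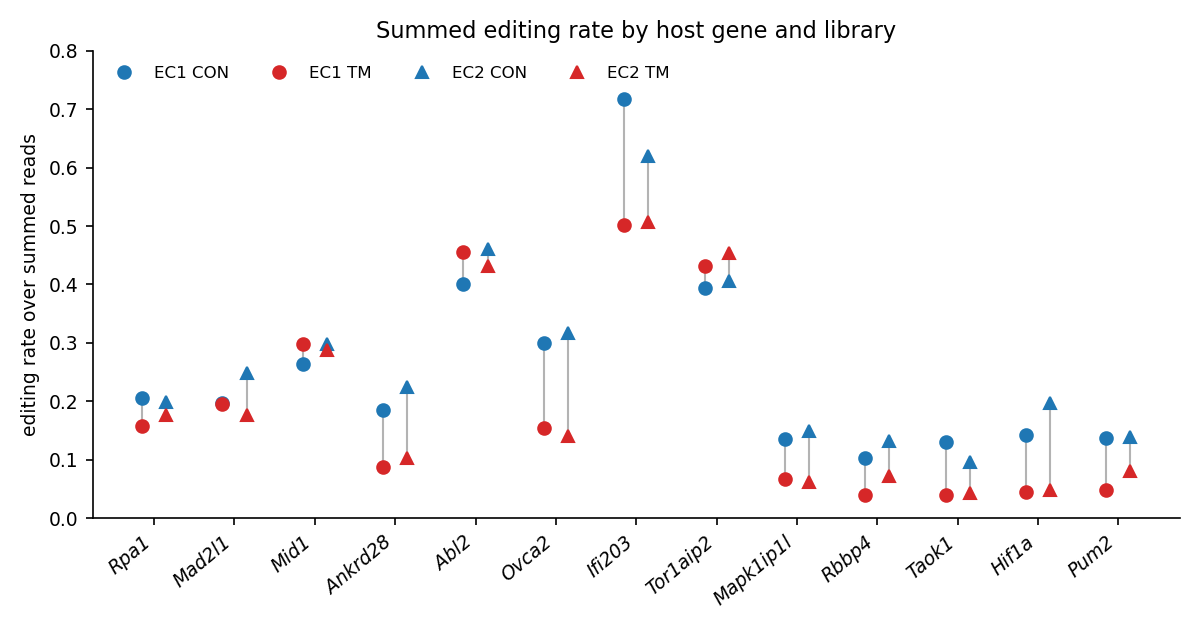
Editing rate over the summed reads of each host's sites listed in all 4 libraries (circles, EC1; triangles, EC2; blue, CON; red, TM; grey lines join the libraries of a mouse). Ankrd28, Ovca2, Hif1a, Taok1, Mapk1ip1l and Rbbp4 have both blue points above both red ones, whereas Mid1 and Abl2 differ in direction between the mice.

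Site by site, the difference between CON and TM was small for the median site. In EC1, 516 sites were listed in both libraries at depth, with a median CON minus TM rate of 0.0112 (quartiles -0.0384 and 0.0681), 283 higher in CON and 206 higher in TM. In EC2, 654 sites gave a median of 0.0170 (quartiles -0.0221 and 0.0700), 389 higher in CON and 238 higher in TM. Over all passing sites the medians were 0.0146 and 0.0259, over 3′ UTR sites in repeats 0.0526 and 0.0727, and over intronic sites outside repeats 0 and 0. When sites were chosen by passing in the other mouse, the medians were 0.0140 in EC1 and 0.0146 in EC2. Many of these sites also passed in the measured mouse. Those that did not had a median of 0 in EC1 (n = 66) and 0 in EC2 (n = 64). With 1 site per host gene, the deepest, they were 0.00929 and 0.00485.

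The study's rate criterion, a difference of at least 0.05 in the same direction in both mice with the filters met in the higher library, took an unlisted site as 0. By it, 67 of the 859 sites (7.80%) in 38 hosts were CON > TM, against 7.33% of all 24200 passing sites. A further 20 (2.33%) in 17 hosts were CON < TM, against 3.89% of all, and 52 went in opposite directions. The share of CON > TM sites was thus close to that of all passing sites, and below the 29.4% of 3′ UTR sites in repeats. Of the 67 sites, 55 had a depth of at least 5 in every library. The rule that chose the sites uses the same reads as this criterion, so the counts are a description. Among the 436 sites, CON lay above TM with no overlap at 135 (31.0%, against 26.9% of all passing sites at this depth), and TM above CON at 49 (11.2%, against 11.2%).

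In edgeR's quasi-likelihood test on altered and reference reads, with Benjamini-Hochberg adjustment over 10304 sites, no site passed 0.05 (0% of all sites tested), and 735 had an unadjusted p under 0.05. None of the 436 sites described here passed, although 44 had an unadjusted p under 0.05, of which 43 were lower in TM. DESeq2 also called none of the 436, with 29 at an unadjusted p under 0.05. Of all 10304 sites DESeq2 called 14 (0.136%), 13 of them lower in TM, and 309 had an unadjusted p under 0.05. With the mouse as a replicate block, 18 of the 436 (4.13%) passed and all 18 were lower in TM. Of all 10304 sites, 2.04% passed, and 1.96% passed and were lower in TM. With Fisher's exact test on the reads of each mouse, 4 of the 436 passed in both mice in the same direction, all lower in TM, against 0.485% of all sites lower and 0.0097% higher in TM. That test covers counting error only and not the spread between cultures. Reads without molecular identifiers are not independent molecules.

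The site called most strongly with the block lay at 129309984 of chromosome 4 in Rbbp4. It had 47 of 174 reads altered against 15 of 213 in EC1 and 80 of 218 against 31 of 246 in EC2, that is rates of 0.270 against 0.0704 in EC1 and 0.367 against 0.126 in EC2. Both TM values were below both CON values, with a log2 odds ratio of -2.11 and an adjusted p of 9.64e-04 by edgeR with the block, and of 0.477 without it. It was also among the 4 sites called by Fisher's exact test, with those of Rpa1 at 75300593, Mapk1ip1l at 47319973 and Selt at 58590823.

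The Hif1a site at 73947507 of chromosome 12 had 16 of 51 reads altered against 8 of 86 in EC1 and 47 of 88 against 11 of 119 in EC2. Its rate was thus 0.314 and 0.534 in CON, and 0.0930 and 0.0924 in TM, the largest mean difference among sites with a depth of at least 20 in every library. The log2 odds ratio was -2.98 and the adjusted p of edgeR was 0.00299 with the block and 0.460 without it. Hif1a lies in the capital letters shown above, with 4 other sites in the same 21 bases.

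Ankrd28 had 4 of the 18 called sites and Rpa1 and Mapk1ip1l had 2 each. The Ankrd28 site at 31700663 had rates of 0.298 against 0.0886 in EC1 and 0.408 against 0.170 in EC2. That at 31700920 had 0.118 against 0.00917 in EC1 and 0.171 against 0.0326 in EC2, among the lowest TM rates of the 18. It passed in CON only, where its rate had to exceed 0.05. Of the 18 sites, 3 passed in CON only, 1 in TM only and 14 in both, against 69, 25 and 342 of the 436 tested. Sites of one cluster share reads, so these calls are not independent of each other. Mapk1ip1l at 47319973 of chromosome 14 had 0.301 against 0.113 in EC1 and 0.328 against 0.112 in EC2. Rpa1 at 75300593 had 0.390 against 0.101 in EC1 and 0.389 against 0.209 in EC2.

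Some called sites stood alone rather than in clusters. Serpine2, a secreted protease inhibitor, had a site at 79794495 of chromosome 1 with rates of 0.0756 against 0.0291 in EC1 and 0.0769 against 0.0284 in EC2, at 481 to 1267 reads. It passed in CON only. Selt, a selenoprotein gene, had 0.120 against 0.0592 in EC1 and 0.141 against 0.0826 in EC2, at 523 to 1247 reads. Other called sites were in Pum2, Jam3, 2900026A02Rik and Phc2, with log2 odds ratios of -1.50, -1.62, -1.43 and -1.01. Those of Pum2 and Jam3 were each in a cluster of 3 sites, and those of 2900026A02Rik and Phc2 stood alone.

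**Figure D3:**
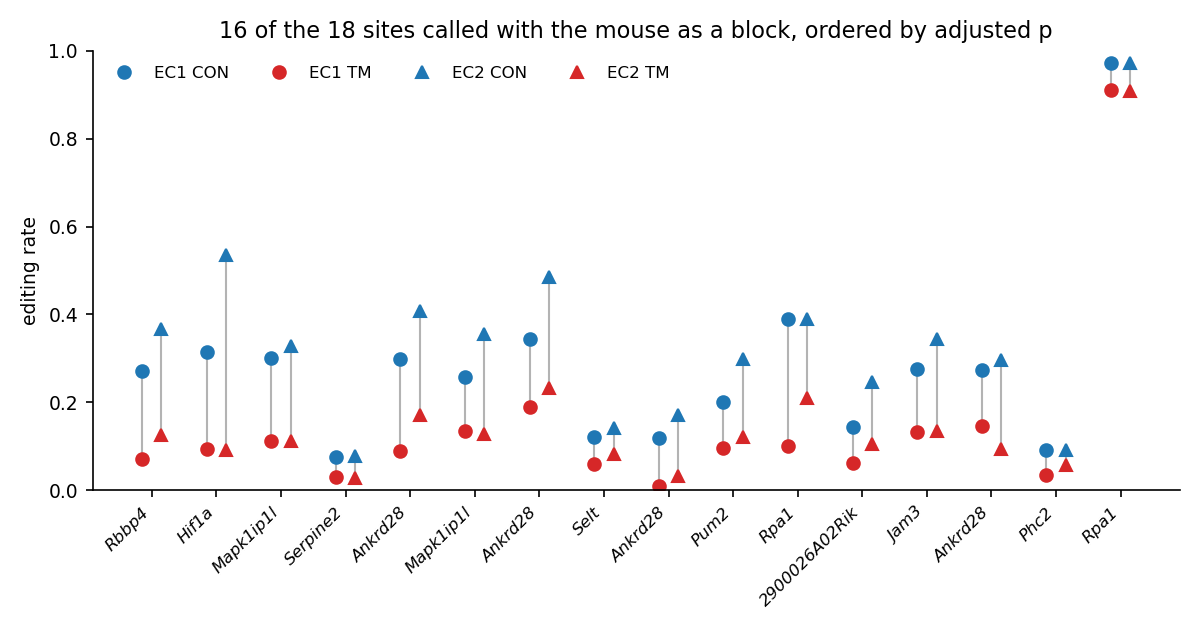
Editing rate of 16 of the 18 sites called by edgeR with the mouse as a replicate block, ordered by adjusted p (circles, EC1; triangles, EC2; blue, CON; red, TM). Every red point lies below the blue point of the same mouse, and the Rpa1 site at the right stays at 0.909 or above in all libraries.

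Sites with a higher rate in TM were named by the same rule and none passed a test. In Pex19, a peroxisome assembly gene, the site at 172135539 of chromosome 1 had 0.476 against 0.828 in EC1 and 0.457 against 0.678 in EC2 (adjusted p = 0.543 by edgeR). The adhesion gene Vcam1 had 0.423 against 0.538 in EC1 and 0.328 against 0.471 in EC2, at 116110496 of chromosome 3. The site of Tor1aip2 at 156068710 had 0.196 against 0.312 in EC1 and 0.209 against 0.314 in EC2. The other 7 sites were in Pex19, Fam20b, Pigm, Abcd3, Soat1 (2 sites) and Trmt61a. Of the 8 hosts, Pex19, Fam20b, Pigm, Tor1aip2 and Soat1 lie on chromosome 1.

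Sites at intermediate rates formed a group of their own. Of the 436 sites, 126 (28.9%) had a rate of 0.3 to 0.7 in every library and 22 were above 0.7 in every library. The median CON minus TM rate of the 126 was -0.0126 in EC1 and -0.000504 in EC2, against 0.0271 and 0.0243 for the 288 sites outside both bands. Chromosome 1 held 69 of the 126, of which 32 lay between 155000001 and 160000000 in the company of 11 other sites, in 8 hosts in all. A further 104 of the 859 sites were listed in both libraries of EC2 and in neither of EC1, 68 of them at 0.3 to 0.7 in both, and 37 were listed in EC1 alone, 21 of them at 0.3 to 0.7. In some hosts the rates differed by mouse in both cultures. The 4 Map3k7 sites had a summed rate of 0.515 against 0.590 in EC1 and 1 against 1 in EC2. The 4 Sox13 sites had 1 against 1 in EC1 and 0.496 against 0.555 in EC2. The files hold no DNA sequence of the mice, so an inherited base difference and an edited base cannot be told apart at a single site.

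Clusters were formed by chaining sites of the same gene up to 100 bases apart. There were 27 clusters of at least 3 sites with 187 sites (21.8%) in 19 hosts, 128 sites in pairs and 544 alone. By the same chaining 70.2% of passing 3′ UTR sites in repeats, and 10.04% of passing intronic sites outside repeats, were in clusters. Clustered sites had a median rate of 0.150 against 0.10 in EC1 and 0.183 against 0.102 in EC2. Their median CON minus TM was 0.0447 in EC1 and 0.0476 in EC2, that of pairs was 0.0103 and 0.0166, and that of single sites was 0 and 0.00114. Over summed reads, in which deep sites weigh more, the difference was 0.0409 and 0.0257 for clustered sites, -0.0265 and -0.0644 for pairs, and 0.0233 and 0.0288 for single sites, so that pairs changed direction. Clusters held 36 of the 67 CON > TM sites and none of the 20 CON < TM sites.

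Complementarity within the UTR was scored for the 814 sites in an annotated 3′ UTR. The score was the best ungapped run of facing bases that included part of the 50 bases on either side of the site, with 1 added for each Watson-Crick pair and 1 taken off for each other facing pair. A score of at least 20 was found for 143 sites (17.6%, 95% Wilson interval 15.1 to 20.3) in 23 hosts. Mad2l1 held 30 of these sites, Rpa1 26, C330018D20Rik 18 and Ankrd28 16, so a few UTRs weigh heavily in all values of this group. Of listed 3′ UTR sites outside repeats that did not pass at a depth of at least 20, 631 of 134813 (0.468%) had it, and of passing 3′ UTR sites in repeats 856 of 1157 (74.0%). Within the 859, it was found for 126 of the 187 clustered sites (67.4%) and 17 of the 627 others scored (2.71%). Neighbouring sites share a stretch, so the intervals are too narrow.

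Sites grouped by the score also differed in CON minus TM rate, which the score did not use. Of the 143 sites that reached 20, 126 were clustered, so score and clustering overlapped. Of the CON > TM sites scored, 33 of 63 (52.4%, interval 40.3 to 64.2) reached 20, against 6 of 118 (5.08%) of those at 0.3 to 0.7 in every library and 1 of 19 CON < TM sites. Sites that reached 20 had a median rate of 0.116 against 0.0697 in EC1 and 0.177 against 0.0854 in EC2, with a median difference of 0.0508 (n = 94) and 0.0594 (n = 126). Sites under 20 had medians of 0.441 against 0.439 in EC1 and 0.455 against 0.444 in EC2, with a median difference of 0 (n = 396) and 0.00476 (n = 495). Outside clusters, sites that reached 20 had median differences of 0.0470 in EC1 (n = 7) and 0.0172 in EC2 (n = 13). Clustered sites under 20 had 0.0222 (n = 44) and 0.0349 (n = 52). CON > TM sites were 3 of 17 in the former group and 6 of 61 in the latter. Of the 27 clusters, 17 held a site that reached 20, and the summed rate was higher in CON in both mice in 13 of the 15 of these with rates in both mice. In the 10 other clusters this held for 4 of 8. These 10 were in Mid1, Optn, Ifi203, Gm7694, Jam3, Sox13, Dagla and Zbtb16.

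**Figure D4:**
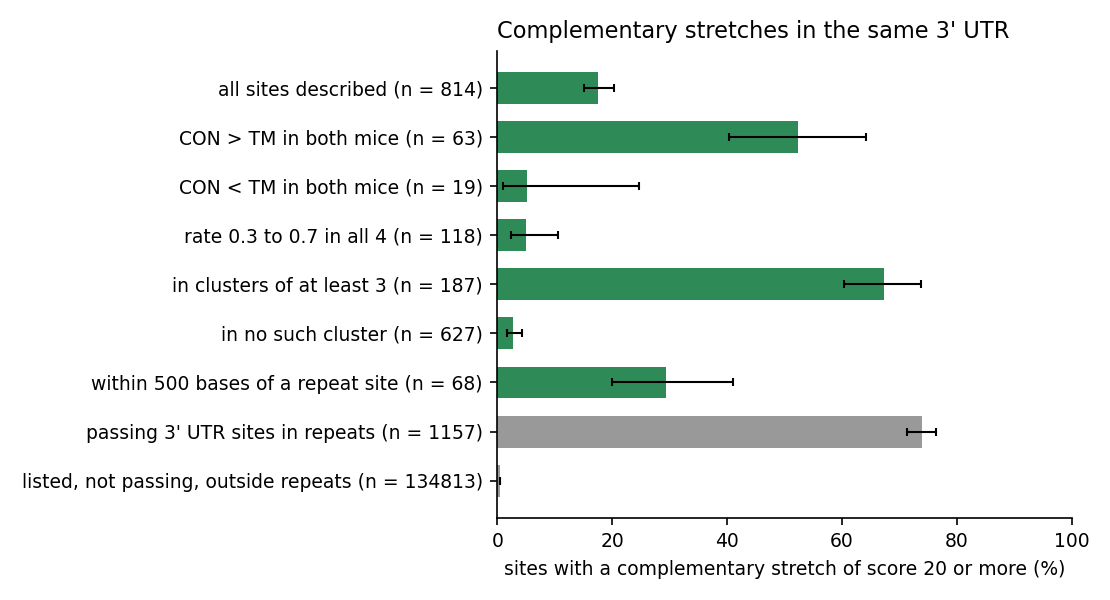
Percent of sites with a complementary stretch of score 20 or more in the same 3′ UTR, with 95% Wilson intervals (green, groups of the 859 sites that were scored; grey, 2 other groups of 3′ UTR sites). The share is 67.4% for clustered sites, 52.4% for CON > TM sites and 5.08% for sites at 0.3 to 0.7 in all libraries.

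Both mice can be set side by side at the 436 sites. Of the 89 with a score of at least 20, 64 were higher in CON in both mice and 6 were higher in TM in both. Few hosts hold many of these sites. At any score, 15 of 27 sites of Rpa1, 10 of 18 of Mad2l1 and 16 of 17 of Ankrd28 were higher in CON in both mice. Sites of one UTR are not independent. Of 120 sites at 0.3 to 0.7 in every library with a lower score or none, 25 were higher in CON in both and 37 higher in TM in both. The remaining 227 gave 76 and 29. Over all passing sites at this depth, 35.3% were higher in CON in both mice and 17.0% higher in TM in both.

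**Figure D5:**
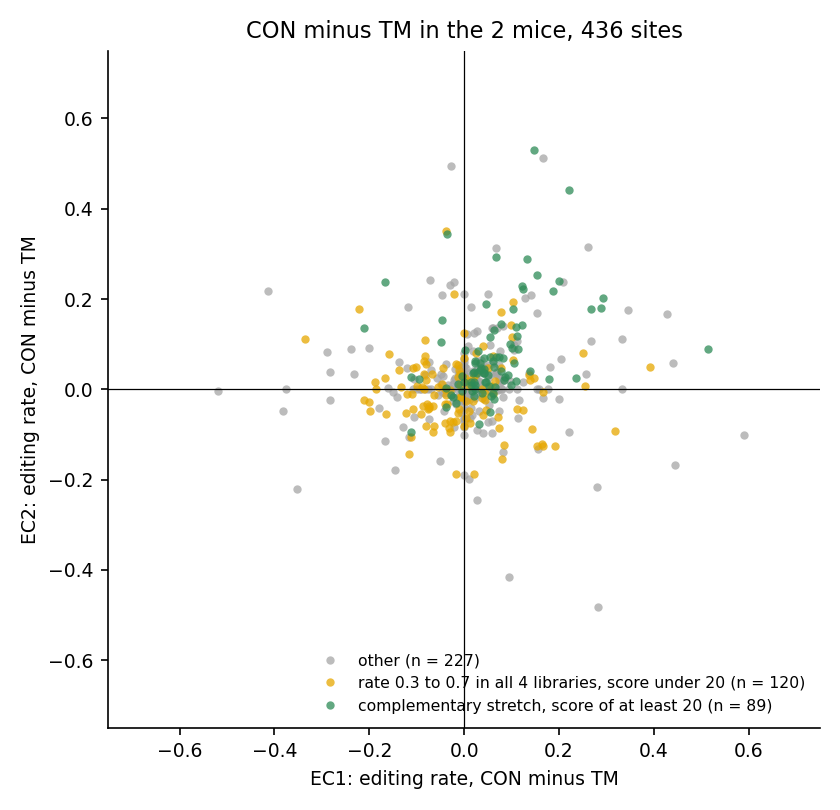
CON minus TM editing rate in EC1 (x axis) and EC2 (y axis) for the 436 sites at a depth of at least 5 in every library (green, complementary stretch of score 20 or more; yellow, rate of 0.3 to 0.7 in all 4 libraries with a lower score or none; grey, other). Green points lie mostly in the upper right, where 64 of 89 are higher in CON in both mice, and yellow points surround 0.

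The base before the site was G at 124 of 820 sites (15.1%, Wilson interval 12.8 to 17.7), against 26.6% of 140523 listed 3′ UTR sites outside repeats that did not pass. At CON > TM sites it was G in 3 of 63 (4.76%, interval 1.63 to 13.1) and A or T in 24 and 23, and at clustered sites in 19 of 187 (10.2%). At sites of 0.3 to 0.7 in every library G preceded 19.3%. In passing 3′ UTR sites in repeats it was 8.86%.

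Distance to the repeat sites of the same gene was measured to the nearest passing one. It was at most 500 bases for 79 sites in 40 hosts, more for 423 sites in 237 hosts (median 3780 bases), and the gene had no passing repeat site for 357 sites in 188 hosts. The nearest repeat site was in an Alu-family (B1) element for 25 of the 79 sites, in a low-complexity region for 15, in a simple repeat for 12, in B4 for 11 and in B2 for 10. Near sites had a median CON minus TM of 0.0273 in EC1 and 0.0358 in EC2, farther sites 0 and 0.0139, and sites in genes with no repeat site 0.0229 and 0.0172. The quartiles of near sites were -0.0358 and 0.0650 in EC1, so that the classes overlapped widely. CON > TM sites were 8 of the 79, 34 of the 423 and 25 of the 357, that is 10.1%, 8.04% and 7.003%. CON < TM sites were 3, 16 and 1. Sites at 0.3 to 0.7 in every library made up 16.5%, 20.3% and 7.56% of the classes. Rpa1, Mad2l1 and Rbbp4 had no passing repeat site in the gene, the Hif1a sites were at least 16094 bases from one, and those of Ankrd28 13 bases or more.

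Expression of the hosts was compared on the deposited gene counts, which can hold reads of the opposite strand as given above. Of 276 hosts tested among 7899 genes, 23 passed (8.33%, against 7.75% of all genes tested), by edgeR with Benjamini-Hochberg adjustment. Of these, 13 were higher in TM, against 4.39% of all genes, and 10 were lower, against 3.35%. The median log2 fold change of hosts was -0.07, and that of all genes 0.00. Counts on genes were 1095488 to 1778732 per library, which was 0.823% to 0.858% of all rows. Hosts such as Rpa1, with 2 to 11 counts despite many reads at its sites, were not tested. Of the 266 tested hosts found in GENCODE, 156 had no overlap with exons of the other strand, and 14 of these (8.97%) passed, against 7.29% of all such genes. Among those with an overlap 8 of 110 (7.27%) passed, against 8.05%. Fewer ECs and less RNA per cell cannot be told apart in these bulk libraries.

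Among the 13 higher hosts were interferon-inducible genes. Ifi203 had 5 counts against 22 in EC1 and 0 against 58 in EC2 (log2 fold change 3.52, SE 0.71, adjusted p = 0.00107). At the 4 Ifi203 sites listed at depth in all libraries, the summed depth was 53 against 1750 reads in EC1 and 87 against 3902 in EC2, and the rate was 0.717 against 0.502 in EC1 and 0.621 against 0.507 in EC2. Ifi203, Ifi204, Pyhin1 and Ifit3b have close paralogs between which alignment can split reads, so their values are uncertain. The DNA sensor gene Aim2 rose by 4.42 on the log2 scale, with 2 against 45 counts in EC1 and 2 against 71 in EC2, and Ifi204 by 3.21. Pyhin1 had no counts in CON, and 18 and 22 in TM. Tor1aip2 had 1684 counts against 5601 in EC1 and 1997 against 8453 in EC2, with a log2 fold change of 1.57, but its exons overlap Tor1aip1 on the opposite strand. Abl2 rose by 1.45 and the transcription factor gene Zeb2, overlapped by Zeb2os, by 1.44. Among the 10 lower hosts, Hjurp, a centromere chaperone, fell by 2.53 on the log2 scale, while Clec9a fell by 2.34, Tmem179 fell by 1.88 and Calcrl, a receptor gene of ECs, fell by 1.64.

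Of the 74 entries on the lists of interferon response, RNA sensing and double-stranded RNA binding, 3 were hosts. Adar stood on both the first and the last of these lists and is counted in each. All 3 hosts were among the 61 entries tested (4.92%), near the 3.49% of hosts among all genes tested. Of 32 interferon-stimulated genes (ISGs), 26 of the 29 tested were higher in TM, and 2 held a site, Ifit3b and Slfn5. None of 19 RNA sensing genes did, of which 6 of the 14 tested were higher. Of 23 genes of editing and double-stranded RNA binding, 1 of the 18 tested was higher, and Dicer1 alone held sites, 3 of them. The Ifit3b site had 4 of 39 reads altered against 183 of 1938 in EC1 and 3 of 21 against 171 of 3695 in EC2. Its rate was 0.103 against 0.0944 in EC1 and 0.143 against 0.0463 in EC2, while its depth was many times higher in TM. The Slfn5 site had 5 of 89 against 3 of 500 reads altered in EC1 and 6 of 161 against 11 of 871 in EC2, and it passed in EC1 CON only, with an adjusted p of 0.478 by edgeR. The 2 Dicer1 sites listed in all libraries had rates of 0.412 to 0.696 in every library.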

How the data were processed

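Per the labels and the study's methods, RNA of 4 libraries was depleted of ribosomal RNA, sequenced as read pairs, trimmed with Trimmomatic 0.38, aligned to mm10 with STAR 2.6.1a and counted per gene with HTSeq 0.11.2. The authors deposited these gene counts without normalization, and their strand setting is not given in the sources used here. Variants of each library came from BCFtools mpileup. The authors retained those that read as A-to-G on the strand of the annotated gene, assigned them to gene regions and RepeatMasker repeats, and deposited the reads per base with the rate, a fraction of 0 to 1. The aligner's handling of repeats and of reads from 2 alleles enters these fractions. The authors' comparisons were not used.

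Rates were recomputed from the reads. Sites were tested with edgeR 4.0.16 in R 4.3.3, on altered and reference reads with a term per library, at a depth of at least 5 in all 4 libraries and an adjusted p of 0.05, and genes with filterByExpr, TMM and the quasi-likelihood test. DESeq2 1.42.0 and scipy 1.17.1 served the alternatives. On simulated sites with 200 of 10304 changed by 2 on the log2 odds scale, the site test called 78 with 3 false calls, and 80 with 2 false calls under the block. The changed sites had a depth of at least 20 in every library and no extreme rates. The simulated spread was fixed in advance and held no difference between mice. The simulation therefore cannot show how the fits with and without the block compare on these data.

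Both cultures of a pair came from 1 mouse. The difference between the mice in CON correlated with that in TM with r = 0.388 over 10304 sites and 0.635 over the 436 described here, which share libraries. The fit without the block was the main one.

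Named sites were those of the 10 hosts with the most sites, of the 10 largest clusters, the 10 largest differences each way at a depth of at least 20, up to 15 called sites, the hosts in the lists, and sites at the limits. Of the 18 sites called with the block, 16 are described and 2 are not reported here. Sites, lists and rules were chosen with earlier results of these data known, and the complementarity score was added after seeing the data. Counts limit the precision. Intervals cover counting error only.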

Additional observations from a re-analysis of the deposited data

How the results depend on the processing

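The median CON minus TM rate of the 859 sites stayed above 0 in both mice under most alternatives run. It was 0 in EC1 (n = 66) and 0 in EC2 (n = 64) for sites that passed in the other mouse only. The difference over summed reads turned to -0.0265 in EC1 and -0.0644 in EC2 for pairs, from medians of 0.0103 and 0.0166, and to 0.00851 in EC2 for sites at 0.3 to 0.7 in all 4 libraries, from -0.000504 (both added after seeing the data). The number of sites stayed within 1.5 times, at 642 to 818. For the 859 sites the CON minus TM rate over summed reads was 0.0218 in EC1 and 0.0214 in EC2, and the median was 0.0188 and 0.0215 without sites at a rate of 0.3 to 0.7 in all 4 libraries (added after seeing the data), and 0.00485 in EC2 with 1 site per host gene. A rate difference of 0.10 left 34 CON > TM and 9 CON < TM sites. With the mouse as a replicate block, 18 sites and 47 host genes (17.0% of hosts tested, against 15% of all genes) were called in place of 0 and 23. Fisher's exact test per mouse called 4 sites (0.917%, against 0.485% of all sites, lower in TM). DESeq2 called 15 host genes (4.31% of hosts tested, against 3.55% of all genes). Without hosts that overlap an exon on the opposite strand (added after seeing the data) 14 were called (8.97%, against 7.29% of all such genes). Leaving out each library in turn leaves a lone library in a group, which is assumed to vary like the pair, so calls of those fits are not given. The median difference near repeat sites was 0.00667 in EC1 and 0.0248 in EC2 when near meant 1000 bases, and 0.0239 in EC2 with repeat sites passing in at least 2 libraries. A score limit of 16 or 25 gave 191 or 106 sites with a complementary stretch in place of 143. The causes of these changes were not tested. Depth limits sites with few reads, and the gene counts limit the host test.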
